A study of Mus musculus with 10 samples.

Results

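The genes that build the synaptonemal complex and carry out meiotic recombination were followed in mouse ovaries of 3 groups. They are Sycp1, Sycp2, Sycp3, Syce1, Syce2, Dmc1, Msh4, Msh5, Hormad1 and Spo11, chosen by name as the 10 of 55487 genes of the deposited table that carry these symbols. By the labels all mice were of C57BL/6J background. The Control group had 4 ovaries from mice of 8 weeks. The mice of the Aged group (3 ovaries) and the Aged+CF group (3 ovaries) were 11 months old by the sample labels and 10 months old by the study's methods. Aged+CF mice had received 200 μL of cell-free fat extract (CEFFE, the liquid protein fraction of fat tissue) at 3 μg/μL through the tail vein every 2 days for 2 weeks, and the methods give saline as the injection of the other groups. By the labels, all mice were given 10 IU of PMSG, a gonadotropin that makes follicles grow, 48 h before the ovaries were taken, so no ovary was unstimulated. Each library was made from whole ovary, and replicate numbers are those in the sample titles.

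During prophase of the first meiotic division, homologous chromosomes are joined along their length by the synaptonemal complex, a zipper with lateral elements along each chromosome axis, transverse filaments that bridge the gap and a central element in the middle. Recombination runs in parallel: Spo11 cuts the DNA, recombinases invade the homologous chromosome, and a MutS pair stabilises the joints that become crossovers. In female mice this takes place before birth, and the oocytes of the adult ovary rest at a later stage, so an adult ovary is not a tissue in which the complex is being assembled. In RNA of a whole ovary, fewer oocytes and less RNA per oocyte cannot be told apart.

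Between 15761789 and 21318254 reads were counted on genes per ovary, and 3 reads correspond to 0.141 to 0.212 CPM (counts relative to the size of the library, which was scaled by the TMM method). The 20 genes of an oocyte marker list were nearly all detected in each ovary, with at most 1 of them at 0 reads, and the 10 granulosa cell markers were above 0 in all 10. Summed oocyte marker levels were 565 to 766 CPM in Control and 208 to 333 CPM in Aged+CF. The Aged ovaries did not form a tight group: replicates 31 and 33 had 159 and 154 CPM and replicate 34 had 19.0 CPM. In the same replicate the 7 immune markers summed to 1279 CPM, against 495 and 507 CPM in the other Aged ovaries. The log2 fold changes of the tested genes among the 10 that use the Aged group are therefore also given without replicate 34.

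Promoter sequences of these genes were examined for the letters recognised by factors known to act on meiotic genes. The stretches with an E-box are shown, a choice made because Sycp3 and Syce2 were lower in Aged ovaries. Msh4 and Sycp2 were lower too and had no E-box. Whether an E-box goes with the fall was not tested. RefSeq promoter windows on GRCm38.p6, from 250 bases before to 50 bases after a transcript start, were found for 9 of the 10 genes. Capitals mark CACGTG (the E-box), TCCCGC (the E2F6-type element, GCGGGA on the other strand) and CCTCAG (the STRA8 core, CTGAGG on the other strand), searched on both strands. Each stretch is written 5′ to 3′ in the direction of the gene and ends before its first annotated exon. That of Syce2 is limited to 30 bases, because there the E-box lies inside the first exon of annotated Syce2 transcripts.
Sycp1, chr3:102936101-102936350, minus strand: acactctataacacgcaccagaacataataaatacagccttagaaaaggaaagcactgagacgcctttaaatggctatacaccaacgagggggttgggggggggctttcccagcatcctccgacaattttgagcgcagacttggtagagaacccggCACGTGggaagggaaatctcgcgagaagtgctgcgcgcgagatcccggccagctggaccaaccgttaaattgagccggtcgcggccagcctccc
Sycp3, chr10:88459337-88459568, plus strand: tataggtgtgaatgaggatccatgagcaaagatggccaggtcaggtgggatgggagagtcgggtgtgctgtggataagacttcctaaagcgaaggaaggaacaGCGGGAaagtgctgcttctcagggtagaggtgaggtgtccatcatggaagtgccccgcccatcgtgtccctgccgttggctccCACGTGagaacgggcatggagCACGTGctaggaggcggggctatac
Syce2, chr8:84872158-84872187, plus strand: cgtttcattcagCACGTGctcggggcgggg
Hormad1, chr3:95559427-95559676, plus strand: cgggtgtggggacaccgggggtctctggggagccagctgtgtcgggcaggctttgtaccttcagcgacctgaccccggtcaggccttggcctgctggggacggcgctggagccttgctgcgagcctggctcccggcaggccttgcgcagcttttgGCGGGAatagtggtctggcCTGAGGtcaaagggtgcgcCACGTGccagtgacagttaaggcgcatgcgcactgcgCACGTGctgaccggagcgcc
The E-box began 94 bases before the RefSeq start of Sycp1, 64 and 43 bases before that of Sycp3, 88 bases before a start of Syce2, and 57 and 20 bases before a start of Hormad1. An E-box was present in windows of 4 of the 9 genes and in 7.15% of all 32851 windows. The E2F6-type letters were in windows of 6 of the 9 genes (6562 of all windows) and the STRA8 core in windows of 5 (8788 of all windows). A gene was counted if any of its windows matched. Syce2 and Hormad1 had 2 windows each, and Syce2 had the E-box in only 1 of them. Counts of genes and shares of windows are therefore not in the same unit. Sycp2 and Msh4, genes also lower in Aged ovaries, had windows with none of the 3 motifs. The window of Msh4 lies inside the annotated gene. Genes with an E-box thus included both Syce2, the most abundant of the set, and Hormad1, for which no read was counted. The E-box and the E2F6-type letters each contain a CpG. The median window of all genes held 6 CpG in the 250 bases before the start, and the windows of 8 of the 9 genes held 7 to 24, so the share over all windows is not that of windows equally rich in CpG. A match is a run of letters and not a measured binding site.

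The levels of the genes within an ovary were compared as FPKM, the authors' counts scaled to the length of the gene and the size of the library. Syce2 led by far, with 2.41 ± 1.204 FPKM over the 10 ovaries (SD), and stood above every other gene of the set in each ovary. Sycp3 (0.439 ± 0.330 FPKM), Msh5 (0.231 ± 0.0784 FPKM) and Dmc1 (0.194 ± 0.0411 FPKM) followed, then Syce1 (0.136 ± 0.140 FPKM), Sycp2 (0.0819 ± 0.0447 FPKM), Msh4 (0.0518 ± 0.0448 FPKM), Sycp1 (0.0369 ± 0.0387 FPKM) and Spo11 (0.0197 ± 0.0203 FPKM). Neighbours in this order from Sycp3 downwards overlapped in their values over the 10 ovaries. The order also differed between groups. In Control, Sycp3 (0.579 to 0.919 FPKM) lay above Msh5 (0.241 to 0.362 FPKM) without overlap, whereas in Aged the means of Sycp3 (0.146 FPKM), Dmc1 (0.193 FPKM) and Msh5 (0.190 FPKM) were close together.

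**Figure D1:**
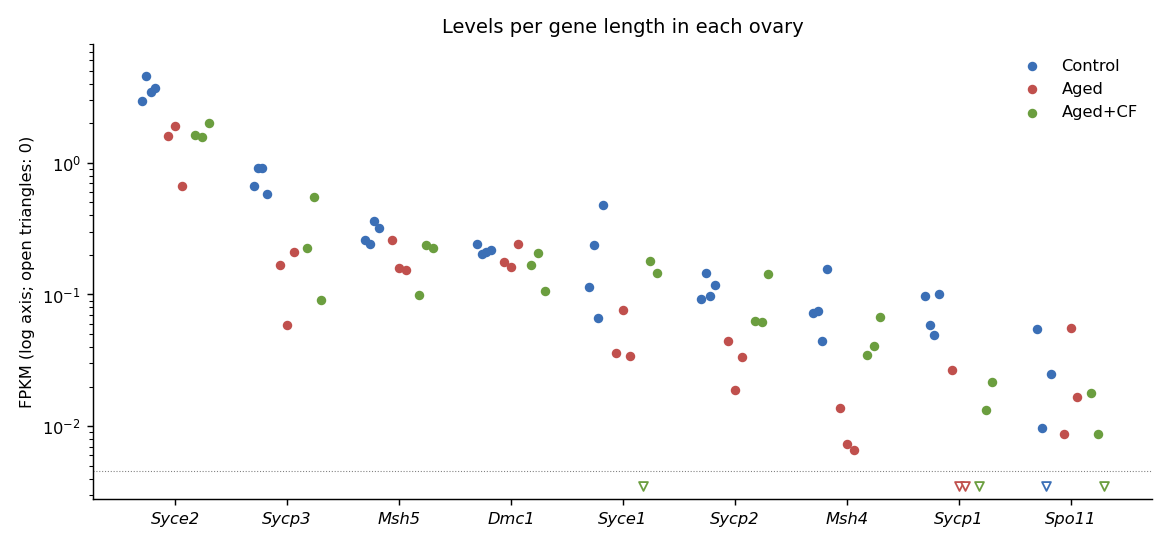
Levels per gene length of the 9 genes with a read, in FPKM on a log axis, with a point for each ovary coloured by group and open triangles for ovaries with 0 reads. Syce2 lies above the other genes in each ovary, and Hormad1, with 0 reads in all 10 ovaries, is not drawn.

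Genes were tested with edgeR's quasi-likelihood F test in a fit of all 10 ovaries, over the 18956 genes with enough reads. Calls required a fold change of 1.5 or more together with a Benjamini-Hochberg adjusted p under 0.05 over all genes tested, and calls at the unadjusted p are given as a second, weaker rule. Of the 10 genes, 6 entered the test (Sycp2, Sycp3, Syce2, Dmc1, Msh4 and Msh5), and Sycp1, Syce1, Hormad1 and Spo11 had too few reads. The filter asked for 0.575 CPM in at least 3 ovaries. Sycp2, Sycp3 and Msh4 passed it without any Aged ovary above that level, that is, mainly through the group in which they were high, so their share among the tested genes is no measure of how many meiotic genes differ.

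In Aged ovaries, 4 of the 6 tested genes were called lower than in Control, namely Msh4, Sycp3, Sycp2 and Syce2, where 6.06% of all tested genes were called lower. Msh5 and Dmc1 were not called. The 4 genes did not overlap between Aged and Control, as in 15.6% of all tested genes in that direction. The median log2 fold change was -1.45 over the 6 genes and near 0 (-0.000525) over all tested genes, with 3 of the 6 subject to the filter just described. None of the 6 was called in Aged+CF vs Aged at the adjusted p, where 0.00528% of tested genes were called.

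Syce2 (ENSMUSG00000003824, chromosome 8, 84872111 to 84888221) encodes a protein of the central element. Its counts were 146, 214, 193 and 201 reads in Control ovaries, 83, 93 and 36 in Aged ovaries and 83, 82 and 128 in Aged+CF ovaries. Every Control ovary exceeded every ovary of the older groups, and Aged replicate 34 was lowest. Between Control (10.6 ± 2.04 CPM, SD, n = 4) and Aged (4.50 ± 2.32 CPM, n = 3) the level fell, with a log2 fold change of -1.24 (SE 0.35, edgeR adjusted p = 0.0390). Without Aged replicate 34 the fall was smaller, at -0.84 on the log2 scale (edgeR adjusted p = 0.0261). Aged+CF had 5.16 ± 0.731 CPM (n = 3), and its log2 difference from Aged was 0.21 with a 95% interval from -0.61 to 1.02, which spans changes in both directions. That difference turned to -0.17 without Aged replicate 34. Against Control, Syce2 was lower in Aged+CF without overlap, with a log2 fold change of -1.03 that passed at the unadjusted p of 0.0128 and not after adjustment (edgeR adjusted p = 0.229). Without Aged replicate 34 the same difference was -1.01 and passed after adjustment (edgeR adjusted p = 0.0354). Gcdh, a gene on the opposite strand, overlaps the body of Syce2 but shares no exonic base with it.

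The lateral element is made of the Sycp2 and Sycp3 proteins, which bind each other along the chromosome axis. Sycp3 (ENSMUSG00000020059, chromosome 10, 88459569 to 88473236) had 23, 30, 36 and 22 reads in Control ovaries, 6, 2 and 8 in Aged ovaries and 8, 20 and 4 in Aged+CF ovaries. No Aged ovary reached the lowest Control ovary, and the level fell between Control (1.55 ± 0.351 CPM) and Aged (0.313 ± 0.155 CPM; log2 fold change -2.25, SE 0.58, edgeR adjusted p = 0.0302). Without Aged replicate 34 the log2 fold change was -2.53 (edgeR adjusted p = 0.0331). The Aged+CF ovaries spread widely, with 0.598 ± 0.496 CPM. Replicate 32 carried most of their excess over Aged: the log2 difference of 0.86 (SE 0.64, edgeR adjusted p = 0.520) was close to 0 without it, and 1.17 without Aged replicate 34. All 3 Aged+CF ovaries were below the Control range, a log2 fold change of -1.39 that passed at the unadjusted p of 0.0272 only (edgeR adjusted p = 0.289). Sycp3 lies within Chpt1 on the opposite strand, and 52.2% of its exonic bases (660) are shared with Chpt1 exons. The strand setting of the read counting is not given in the sources used here, so Sycp3 counts are uncertain. Chpt1, a phospholipid synthesis gene, had 681 to 1122 reads in Control and 1046 to 1460 in Aged, and changed in the opposite direction to Sycp3 (log2 fold change 0.67, edgeR adjusted p = 0.0329).

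Sycp2 (ENSMUSG00000060445, chromosome 2, 178345293 to 178407685) had 10, 15, 12 and 14 reads in Control ovaries, 5, 2 and 4 in Aged ovaries and 7, 7 and 20 in Aged+CF ovaries. Each Aged ovary was below each Control ovary, and the level fell between Control (0.717 ± 0.161 CPM) and Aged (0.220 ± 0.0786 CPM; log2 fold change -1.65, SE 0.46, edgeR adjusted p = 0.0374). Without Aged replicate 34 the log2 fold change was -1.61 and no longer passed (edgeR adjusted p = 0.0700). Aged+CF ovaries had 0.580 ± 0.309 CPM, all above the Aged ovaries, and replicate 34 of this group was as high as the highest Control ovary. The log2 difference between Aged+CF and Aged was 1.37 (SE 0.48), which passed at the unadjusted p of 0.0172 but not after adjustment (edgeR adjusted p = 0.222). It was 1.35 without Aged replicate 34 and 0.83 without Aged+CF replicate 34. Against Control the Aged+CF ovaries overlapped, with a log2 difference of -0.28 and a 95% interval from -1.16 to 0.60.

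Reads of the transverse filament gene Sycp1 and of the central element gene Syce1 were too few for the test. Sycp1 (ENSMUSG00000027855, chromosome 3, 102818499 to 102936100) had 7, 4, 4 and 8 reads in Control ovaries, 2, 0 and 0 in Aged ovaries and 0, 1 and 2 in Aged+CF ovaries. Every Control ovary thus had more reads than any ovary of the older groups. The ratio of summed, library-scaled counts was 0.127 for Aged to Control (2 against 23 reads), with a 95% counting interval from 0.0145 to 0.515, and 0.167 for Aged+CF to Control (0.0320 to 0.551). These intervals cover counting error only and not the spread between mice. Syce1 (ENSMUSG00000025480, chromosome 7, 140777229 to 140787852) had 3, 6, 2 and 14 reads in Control ovaries, 1, 2 and 1 in Aged ovaries and 0, 5 and 5 in Aged+CF ovaries. Of the 25 Control reads, 14 came from replicate 34, and the groups overlapped. Fitted without a filter on low counts, neither gene passed in Aged vs Control (edgeR adjusted p = 0.125 for Sycp1 and 0.312 for Syce1 over 36618 genes).

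**Figure D2:**
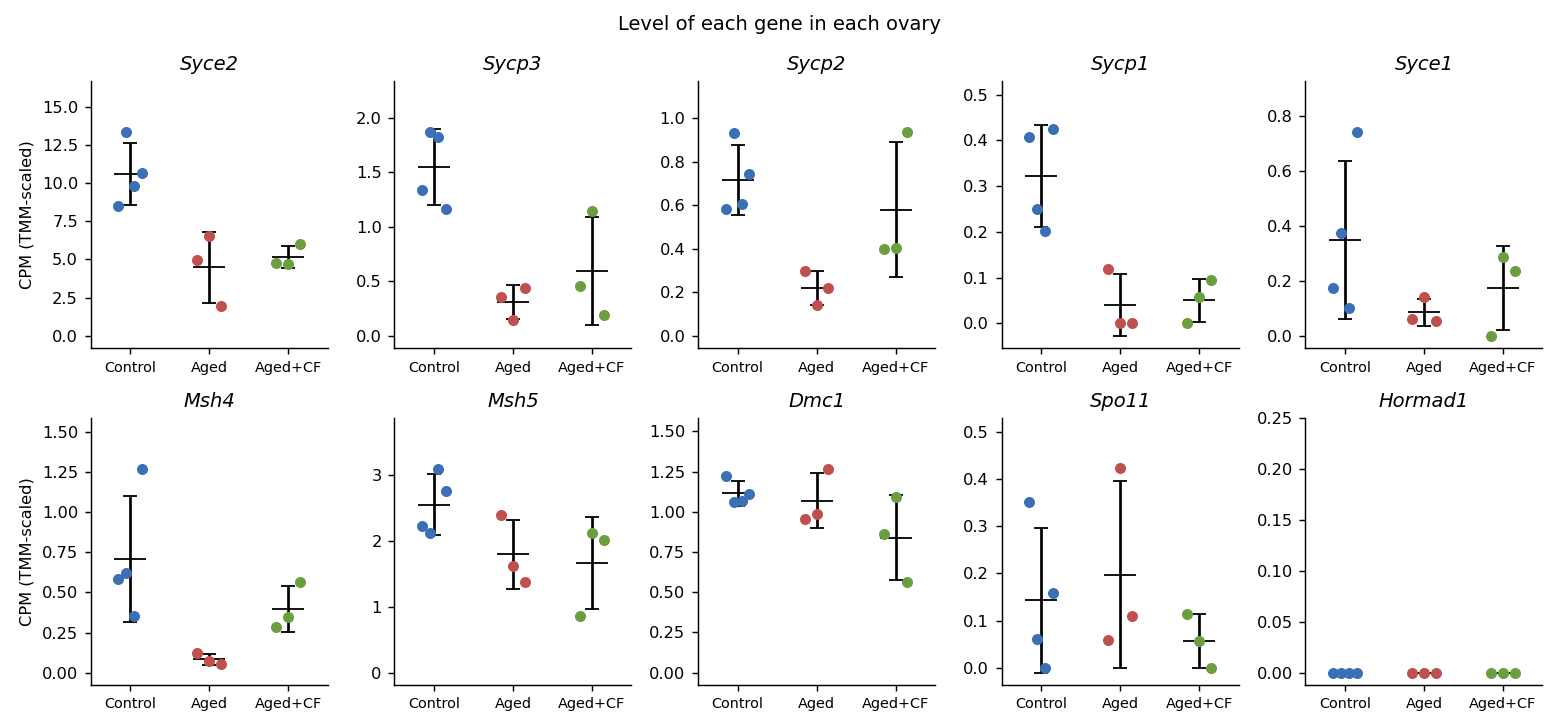
TMM-scaled CPM of the 10 genes, with a point for each ovary and the mean ± SD of each group as a bar with whiskers, each panel on its own linear axis. In Syce2, Sycp3, Sycp2, Sycp1 and Msh4 each Aged ovary lies below each Control ovary, in Msh4 and Sycp2 each Aged+CF ovary lies above each Aged ovary, and Dmc1 overlaps between all groups.

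Msh4 and Msh5 encode the partners of the MutS pair that stabilises recombination joints. Msh4 (ENSMUSG00000005493, chromosome 3, 153857149 to 153906138) had 10, 10, 7 and 24 reads in Control ovaries, 2, 1 and 1 in Aged ovaries and 5, 6 and 12 in Aged+CF ovaries. Aged was lowest and overlapped with neither of the other groups, while Aged+CF overlapped with Control. Msh4 fell between Control (0.709 ± 0.394 CPM) and Aged (0.0817 ± 0.0335 CPM), where it was below the level of 3 reads. The ratio of summed, scaled counts was 0.115 (4 against 51 reads, 95% counting interval 0.0301 to 0.312), and the fitted log2 fold change, which at such counts depends on the prior count, was -3.02 (SE 0.62, edgeR adjusted p = 0.0138). It was -2.75 without Aged replicate 34 (edgeR adjusted p = 0.0285). In Aged+CF the level was 0.398 ± 0.145 CPM, a ratio of 5.02 to Aged (23 against 4 reads, counting interval 1.72 to 19.98). This difference passed at the unadjusted p of 0.00800 and not after adjustment (edgeR adjusted p = 0.190), with a log2 difference of 2.21 (1.97 without Aged replicate 34), and Msh4 was called neither way in Aged+CF vs Control (log2 difference -0.81, 95% interval -1.86 to 0.25).

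Msh5 (ENSMUSG00000007035, chromosome 17, 35028605 to 35046745) had 38, 34, 61 and 52 reads in Control ovaries, 40, 23 and 25 in Aged ovaries and 15, 37 and 43 in Aged+CF ovaries. Aged replicate 31 lay within the Control range, and the Aged+CF group held both the lowest ovary and ovaries close to Control. Levels were 2.55 ± 0.459 CPM in Control, 1.80 ± 0.526 CPM in Aged and 1.67 ± 0.701 CPM in Aged+CF. The log2 difference from Control was -0.50 in Aged (95% interval -1.28 to 0.27, edgeR adjusted p = 0.355) and -0.61 in Aged+CF (-1.38 to 0.16, edgeR adjusted p = 0.448), and that in Aged was -0.31 without Aged replicate 34. Aged+CF differed from Aged by -0.10 (95% interval -0.93 to 0.72, edgeR adjusted p = 0.914), and by -0.28 without Aged replicate 34.

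Dmc1, the meiosis-specific recombinase that performs strand invasion (ENSMUSG00000022429, chromosome 15, 79561497 to 79605109), had the smallest difference between Aged and Control of the 6 tested genes. It had 21, 17, 21 and 21 reads in Control ovaries, 16, 14 and 23 in Aged ovaries and 15, 19 and 12 in Aged+CF ovaries. Its level was 1.12 ± 0.0770 CPM in Control, 1.07 ± 0.172 CPM in Aged and 0.838 ± 0.265 CPM in Aged+CF. The highest value of all was that of Aged replicate 34, the ovary with the fewest oocyte marker reads. The log2 difference between Aged and Control was -0.06, with a 95% interval from -0.69 to 0.57 (edgeR adjusted p = 0.919), and it was -0.16 without Aged replicate 34. Between Aged+CF and Aged it was -0.36 (SE 0.31, edgeR adjusted p = 0.579), and -0.23 without that replicate. Falls of the size of Msh4 or Sycp3 lie outside the interval of Aged against Control.

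At the start of the pathway, Spo11 and Hormad1 gave hardly any reads. Spo11, which makes the breaks that begin recombination (ENSMUSG00000005883, chromosome 2, 172977700 to 172993576), had 6, 1, 0 and 3 reads in Control ovaries, 1, 6 and 2 in Aged ovaries and 2, 1 and 0 in Aged+CF ovaries. The groups overlapped, and the ratio of summed, scaled counts of Aged to Control, 1.32, had a counting interval from 0.473 to 3.604. Hormad1, a chromosome axis protein that is removed as the synaptonemal complex forms (ENSMUSG00000028109, chromosome 3, 95559677 to 95587671), had 0 reads in all 10 ovaries, so any level in a library lay under the 0.141 to 0.212 CPM that 3 reads represent. No difference in either gene was detectable at this depth.

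Across the comparisons, the calls at the unadjusted p were 2 genes higher in Aged+CF than in Aged (Msh4 and Sycp2, where 3.91% of all tested genes were called higher and 10.2% did not overlap in that direction) and 2 genes lower in Aged+CF than in Control (Sycp3 and Syce2, where 4.36% were called lower and 12.2% did not overlap). These comparisons share the Aged or the Control ovaries, so they are not independent of Aged vs Control. At the adjusted p none of the 6 genes was called in Aged+CF vs Control, where 0.179% of tested genes were. The calls in Aged vs Control moved with the choice of ovaries. With each ovary left out in turn, between 0 and 3 of them passed the adjusted p. None passed when Control replicate 31, 32 or 34 was left out, where Msh4 also fell under the filter on low counts, and 3 passed without Aged replicate 34. Only Msh4 passed without Control replicate 33, Aged replicate 31 or Aged+CF replicate 30, and Msh4 and Syce2 passed without Aged replicate 33. Without that filter, Msh4 (edgeR adjusted p = 0.0223) and Sycp3 (0.0478) passed, and Syce2 (0.0597) and Sycp2 (0.0746) did not.

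**Figure D3:**
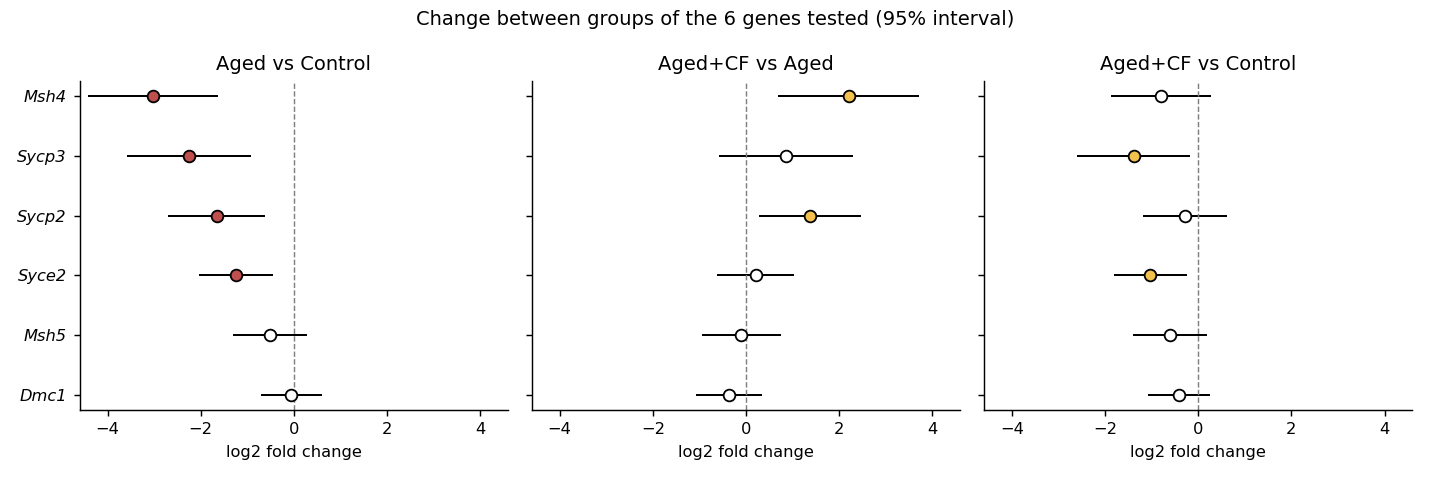
Log2 fold changes of the 6 tested genes in the 3 comparisons, with 95% intervals as lines. Red points passed the fold change limit and the adjusted p, yellow points the unadjusted p only, and white points neither. In Aged vs Control the points run from -3.02 for Msh4 to -0.06 for Dmc1.

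Oocyte markers were lower in the same ovaries. Of the 20 oocyte markers, 16 were called lower in Aged than in Control at the adjusted p (beside 6.06% of all tested genes). At the unadjusted p 20 were called lower (beside 9.44%), with a median log2 fold change of -2.44. Zp3, of the egg coat, was among them (log2 fold change -2.84), as was Nobox, an oocyte transcription factor (-2.51). In Aged+CF vs Aged, 7 of the 20 were called higher at the unadjusted p (beside 3.91% of all tested genes), with a median of 1.11. At the adjusted p 0 were called (beside 0.00528% in either direction). Over the 10 ovaries, log2 CPM of Syce2 followed that of the summed oocyte markers with r = 0.944, followed by Msh4 (0.830), Sycp2 (0.753), Sycp3 (0.549), Msh5 (0.511) and Dmc1 (-0.160). These points share libraries and group differences, and the values are descriptive. Immune markers moved the other way: 4 of 7 were called higher in Aged at the adjusted p (beside 5% of all tested genes) and none lower, and their sums ran from 238 to 280.3 CPM in Control, 495 to 1279 CPM in Aged and 405 to 429.6 CPM in Aged+CF. Most of the theca and stroma sum was Cyp11a1, an enzyme of steroid synthesis. Cyp11a1 was the 1 marker of 7 that was called in Aged vs Control (log2 fold change 1.47, edgeR adjusted p = 0.0158). Of the 7, 5 had positive differences and 2 negative ones, Col1a1 (-0.32) and Tcf21 (-0.19), with a median of 0.43. The 7 markers summed to 4016 to 6551 CPM in Control, 10083 to 14650 CPM in Aged and 6704 to 9513 CPM in Aged+CF. All 10 granulosa markers had negative differences in Aged vs Control (median -0.71), and 4 were lower at the unadjusted p (beside 9.44% of all tested genes). Their sums ran from 5810 to 8317 CPM in Control, 3768 to 5886 CPM in Aged and 3510 to 5387 CPM in Aged+CF. Oviduct and ciliated cell markers summed to 439.9 CPM in Control replicate 33 and 336 CPM in Aged replicate 34, against 7.83 to 41.7 CPM in the other 8 ovaries. Fat markers ran from 17.2 to 79.3 CPM in Control, from 30.4 to 92.9 CPM in Aged (highest in replicate 34) and from 33.5 to 34.9 CPM in Aged+CF. None of the 10 granulosa, 7 tested oviduct and 5 fat markers was called in Aged vs Control at the adjusted p. The part of the cell makeup in the results above was not tested.

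Set against the oocyte markers of the same ovary, the groups stood in another order for Syce2, Dmc1 and Msh5. Control and Aged overlapped for Msh4, Sycp2, Sycp3 and Sycp1. Syce2 had 141 to 174 reads per 10000 oocyte marker reads in Control, 311, 425 and 1043 in Aged, and 180 to 227 in Aged+CF, so that by this measure Control was lowest and Aged highest, without overlap. Dmc1 gave 13.8 to 21.7 in Control, 59.97, 64.0 and 667 in Aged, and 16.9 to 52.5 in Aged+CF. The last Aged value in each series is that of replicate 34, whose marker sum was only 345 reads. Msh5 behaved similarly, with 27.7 to 52.4 in Control and 105 to 725 in Aged. Msh4, at 6.01 to 16.8 in Control, 4.58 to 29.0 in Aged and 11.4 to 16.9 in Aged+CF, overlapped between all groups. Sycp2 overlapped between Control (9.79 to 12.2) and Aged (9.15 to 116), while all 3 Aged+CF ovaries (16.0 to 28.2) were above Control. Sycp3 overlapped between all groups, at 15.4 to 30.9 in Control, 22.5, 9.15 and 232 in Aged, and 5.63 to 55.3 in Aged+CF. Sycp1 had its highest mean in Control (4.88, against 2.499 in Aged and 1.86 in Aged+CF), while Control (3.26 to 7.23) and Aged (0 to 7.496) overlapped. All 3 Aged+CF ovaries (0 to 2.82) were below Control for Sycp1. The Aged ratios of these 4 genes rest on few reads per ovary: 1 to 2 for Msh4, 2 to 5 for Sycp2, 2 to 8 for Sycp3 and 0 to 2 for Sycp1. Aged+CF ovaries also had 0 to 2 reads of Sycp1. Overlap or its absence can thus turn on single reads. The ratio of a gene to a marker sum also moves with any change in the markers themselves.

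**Figure D4:**
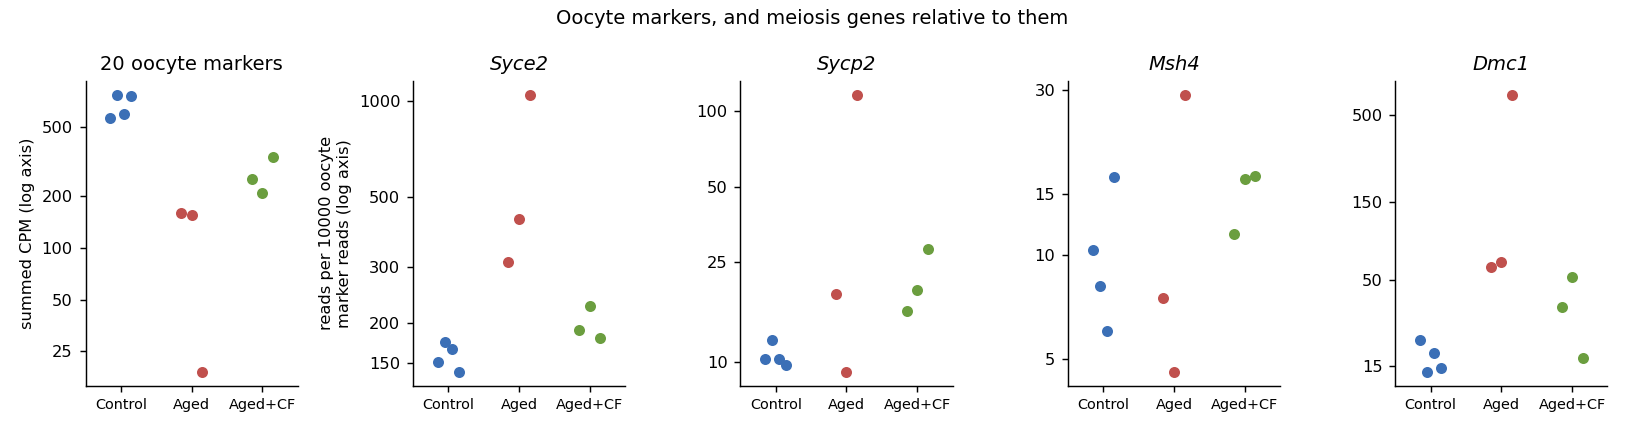
The left panel plots the summed CPM of 20 oocyte markers in each ovary, and the other panels the reads of Syce2, Sycp2, Msh4 and Dmc1 per 10000 oocyte marker reads, all on log axes with a point per ovary. Aged replicate 34 has the lowest marker sum (19.0 CPM) and the highest ratio in each of the 4 genes.

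Other genes of the same pathway, 45 in a list that covers the complex, break formation, strand invasion, crossovers, telomere attachment and meiotic entry, were examined in the same fit. Of these, 44 were in the table and 23 were tested. In Aged vs Control 9 were called lower and 0 higher at the adjusted p, with a median log2 fold change of -0.40, against 6.06% of all tested genes called lower. Of the 9, 2 (Terb1 and Meiosin) had no Aged ovary past the level of the filter on low counts, so the count and the median are subject to that filter. The 3 other synaptonemal complex genes (Syce3, Tex12 and Six6os1) were too low to be tested, and Syce3 had 0 reads in all ovaries.

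Among strand invasion genes, Tex15 was lower in Aged (13.6 ± 9.04 CPM) than in Control (46.5 ± 6.46 CPM; log2 fold change -1.77, SE 0.50, edgeR adjusted p = 0.0400), and Brme1, listed as 4930432K21Rik, fell from 4.16 ± 0.752 to 2.22 ± 0.274 CPM (-0.90, edgeR adjusted p = 0.0212). Psmc3ip and Mnd1, whose products assist Dmc1 directly, had log2 differences of -0.23 and -0.21 and were not called, as Dmc1 was not.

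Of the axis and crossover genes, Trip13, the ATPase that removes HORMA proteins from the axis, fell from 11.1 ± 2.69 to 4.61 ± 1.02 CPM (-1.27, edgeR adjusted p = 0.0125). Exo1, a nuclease of DNA repair, fell from 15.6 ± 4.31 to 4.06 ± 2.57 CPM (-1.95, edgeR adjusted p = 0.0172). Mlh3, which acts after Msh4 and Msh5 in crossovers, differed by 0.18 on the log2 scale and was not called.

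The telomere attachment genes Terb1 and Kash5 were lower in Aged, as were the meiotic entry genes Meiosin and Taf4b. Terb1, which ties telomeres to the nuclear envelope, fell from 0.889 ± 0.315 to 0.142 ± 0.0231 CPM (-2.58, edgeR adjusted p = 0.0132), and Kash5, listed as Ccdc155, from 2.09 ± 0.796 to 0.556 ± 0.351 CPM (-1.92, edgeR adjusted p = 0.0375). Meiosin, listed as Gm4969, fell from 1.08 ± 0.580 to 0.207 ± 0.0941 CPM (-2.36, edgeR adjusted p = 0.0263), and Taf4b, a TFIID subunit of germ cells, from 27.2 ± 5.82 to 12.2 ± 4.01 CPM (-1.16, edgeR adjusted p = 0.0240). None of the 4 tested break formation genes was called, Prdm9 among them (log2 difference 0.22), which marks the sites of the breaks. Without Aged replicate 34, 7 of the 23 genes were called.

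In Aged+CF vs Aged, 0 of the 23 genes were called at the adjusted p and 3 were higher at the unadjusted p, among them Terb1 (log2 difference 2.32) and Tex15 (1.43), beside a background of 3.91%. Terb1 was 0.737 ± 0.343 CPM in Aged+CF, with a log2 difference of -0.26 from Control. Against Control, 6 of the 23 were lower in Aged+CF at the unadjusted p (beside 4.36% of all tested genes). At the adjusted p 0 were called (beside 0.179% in either direction).

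**Figure D5:**
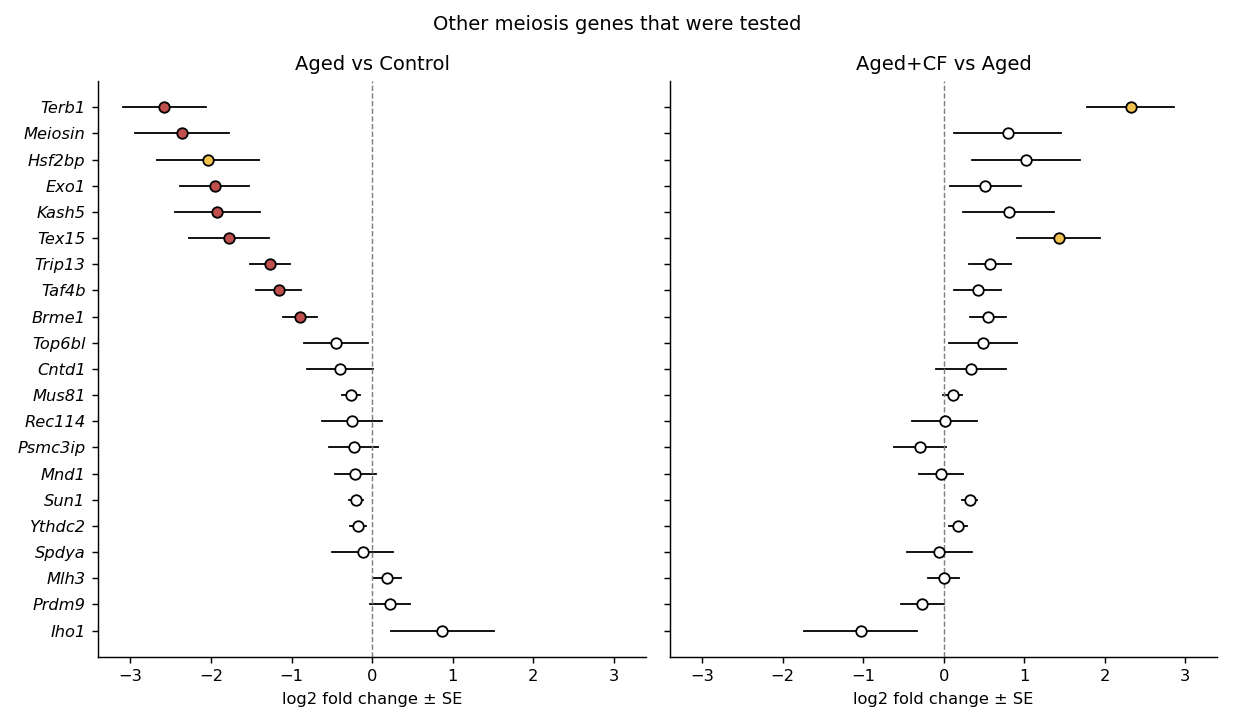
Log2 fold changes with their SE as lines for 21 of the 23 tested genes of the pathway list in the comparisons of Aged with Control and of Aged+CF with Aged. Red points passed the fold change limit and the adjusted p, yellow points the unadjusted p only, and white points neither. The 8 red points drawn lie on the left, from -2.58 for Terb1 to -0.90 for Brme1, and no red point is seen in Aged+CF vs Aged.

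Among themselves the 6 tested genes were most alike in the pair Sycp2 and Msh4 (r = 0.888 of log2 CPM over the 10 ovaries) and least alike in Sycp2 and Dmc1 (r = -0.309). Over all genes of at least 1 CPM, the profile nearest to Syce2 was that of Aunip (r = 0.994), followed by Crabp2 (0.981). The profiles nearest to Sycp2 were those of Sf3b3 (0.990) and Ganab (0.979), nearest to Sycp3 those of Mthfd1l (0.956) and Adam11 (0.948), and nearest to Msh4 those of Ppic (0.970) and Vps37d (0.969). For Msh5 (Blcap, 0.911, and Hscb, 0.894) and Dmc1 (Arpp19, 0.867, and Gm37233, 0.862) the nearest profiles were less close. These values of r are a description over 10 ovaries that fall into 3 groups. The nearest profiles were picked as the highest r among all tested genes of at least 1 CPM, so high values can arise from the choice alone. Some of the 6 genes had few reads, Sycp2 as few as 2 and Msh4 as few as 1 in an Aged ovary.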

How the data were processed

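RNA of 10 ovaries was sequenced, and samples were grouped by their labels. Per gene, the authors deposited raw counts of reads and the FPKM made from them. The counting tool and strand setting are not given in the sources used here. The submitters' processing notes name TopHat, Cufflinks 2.1.1 and a GRCm38 build. Where the labels do not name the mice, p-values measure only the spread between the samples of a group.

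Counts were filtered by edgeR's filterByExpr with the groups, scaled by TMM and fitted in edgeR 4.0 (R 4.3) with a mean per group over all 10 ovaries. The 3 comparisons were made by the quasi-likelihood F test, with Benjamini-Hochberg adjustment over 18956 genes. Correlations used log2 CPM with a prior count of 2. The members and lists were chosen with earlier results of these data known. The genes named are all 10 members, the pathway genes called at the adjusted p, the 2 genes of at least 1 CPM nearest in profile to each tested member, and markers. Some genes chosen by this rule are not reported here. Psmc3ip, Mnd1, Mlh3, Prdm9, the untested complex genes, and the overlapping Chpt1 and Gcdh were named after their values were seen. Positions came from GENCODE M21 on GRCm38 and promoters from RefSeq on GRCm38.p6.

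Alternatives were no filter, DESeq2 size factors, the Wald test of DESeq2 1.42, only the compared groups, the replicate number as a block and leaving out each ovary. No libraries of a group were duplicates.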

Additional observations from a re-analysis of the deposited data

How the results depend on the processing

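The log2 fold changes of Msh4, Sycp3, Sycp2 and Syce2 in Aged vs Control stayed negative under all alternatives run in which the gene was tested. The number of them called at the adjusted p, 4 in the report, was 2 without the filter on low counts and 0 with the replicate number as a block, and ran from 0 to 3 when an ovary was left out. Leaving out Control replicate 31, 32 or 34 gave 0 and left 5 genes tested. Msh4 was not tested in those fits, because only 3 Control ovaries (replicates 31, 32 and 34) were past the filter level. In the other fits with an ovary left out it passed, with edgeR adjusted p from 0.0167 to 0.0381. All of these kept the 3 Control ovaries, so they could not show whether the call of Msh4 depends on them. DESeq2 size factors and the Wald test of DESeq2 called the same 4 genes. In Aged+CF vs Control, 1 gene (Syce2) was called at the adjusted p with only the compared groups in the fit, and 0 to 1 when an ovary was left out. At the unadjusted p, the 2 genes of Aged+CF vs Aged (Sycp2 and Msh4) became 1 with the block and 1 to 2 with an ovary left out. The genes also changed: without Aged+CF replicate 34 the 2 called were Sycp3 and Msh4. With only the compared groups neither Sycp2 nor Msh4 was tested, as both fell under the filter on low counts. Of the 3 genes then tested, 0 were called. The 2 genes of Aged+CF vs Control (Sycp3 and Syce2) became 0 at the unadjusted p with the block and 1 to 2 with an ovary left out. Without Control replicate 33 the 2 called were Syce2 and Msh4.

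Of the pathway list, in alternatives added after the data were seen, the 9 genes called in Aged vs Control became 5 with only the compared groups, 0 with the block and 4 to 9 with an ovary left out. In Aged+CF vs Aged 1 was called by the Wald test, and in Aged+CF vs Control 1 by the Wald test, 1 with only the compared groups, and 0 to 1 with an ovary left out. Over all tested genes, 2096 were called at the adjusted p in Aged vs Control and 80 with the block, and 1 in Aged+CF vs Aged and 442 with the Wald test or 556 without Aged replicate 34.

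Signs of small differences turned. Dmc1 in Aged vs Control was 0.015 with the block and ran from -0.16 to 0.048 with an ovary left out. In Aged+CF vs Aged, Msh5 was 0.43 with the block and ran from -0.31 to 0.19, Syce2 from -0.17 (without Aged replicate 34) to 0.57, and Sycp3 from -0.0046 (without Aged+CF replicate 32) to 1.31. The cause was not tested. The labels do not say whether shared replicate numbers pair the mice. Deviations from the group means correlated between -0.185 and 0.153 for ovaries of the same number. Of the Aged ovaries, 1 of 3 was most like the Control ovary of its own number. Among Aged+CF ovaries, replicate 34 was most like Control replicate 34 (r = 0.153) and replicate 32 was not most like Control replicate 32 (r = -0.0874). These few correlations cannot settle whether the numbers pair the mice. Depth limits Sycp1, Syce1, Spo11 and Hormad1, with at most 14 reads in an ovary.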

Other observations

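The balance between partners of a complex was compared in a test chosen after the values were seen. The log2 ratio of Msh4 to Msh5 reads (with 0.5 added to each count) averaged -1.93 ± 0.81 over the 4 Control ovaries (SD), -4.03 ± 0.059 over the 3 Aged ovaries and -1.94 ± 0.53 over the 3 Aged+CF ovaries. The difference between Aged and Control was -2.09 (two-sided exact permutation p = 0.0571, where 0.0286 is the smallest possible, adjusted p = 0.229 over 6 such tests). Between Aged+CF and Aged it was 2.08 (exact p = 0.1, the smallest that 3 against 3 ovaries allow, adjusted p = 0.229), and between Aged+CF and Control -0.0093 (exact p = 1). For Sycp2 to Sycp3 the differences were 0.69 in Aged vs Control (exact p = 0.114), 0.57 in Aged+CF vs Aged (exact p = 0.8) and 1.27 in Aged+CF vs Control (exact p = 0.2), none of which passed. The Aged values of Msh4 rest on 1 or 2 reads per ovary. The ratio reuses the Msh4 counts whose fall had already been seen, so it is no separate support for that fall.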
